A study of Mus musculus with 8 samples.

Results

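The genes described here are 33 mouse genes of cholesterol synthesis, uptake, transport and efflux, chosen by symbol from the 45777 genes of each count table. All 33 were found in every table, and 31 passed the filter on low counts; the pair that did not was Abca1 and Mylip. Expression was measured by bulk poly(A) RNA sequencing of 8 libraries of organoids, 3-dimensional cultures of tumour epithelium, which the labels describe as mouse hepatocellular carcinoma related to metabolic dysfunction-associated steatohepatitis (MASH), with a wild-type genotype throughout. The parental group held 4 lines with the control label for treatment, 1 library each: SNU-6621 and SNU-6622, found in this group only, and SNU-6624 with SNU-6625. Values of the 4 parental lines are given in that order. The lenvatinib group held lines SNU-6624 and SNU-6625 treated with lenvatinib, a multikinase inhibitor that blocks VEGF and FGF receptors, among others. The resistant group held lenvatinib-resistant cultures of the same 2 lines, which also carry the control label for treatment. The labels used here give no dose, no duration and no separate animals for libraries of one line, so p-values measure only the spread between these libraries, which may be technical.

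Cells make cholesterol from acetyl-CoA through the mevalonate arm, in which HMG-CoA is reduced and built up into farnesyl diphosphate, then through squalene and lanosterol, and finally through a chain of demethylation, reduction and isomerisation steps. SREBP2, the product of Srebf2, activates the genes of the whole route when sterols in the endoplasmic reticulum are low. SCAP escorts SREBP2 out of the endoplasmic reticulum, and INSIG1 holds both back when sterols are plentiful. The oxysterol receptors LXR-alpha and LXR-beta (Nr1h3 and Nr1h2) act in the opposite case, inducing the efflux pumps Abca1 and Abcg1 and Mylip, a ubiquitin ligase that removes the lipoprotein receptor. The liver is the main organ of this balance.

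Each library held 49.0 to 61.0 M counts (M for megacounts), and levels are given as CPM, the count scaled to the library total in megacounts. A count of 3, taken as the floor for a value of 0, was 0.0492 to 0.0612 CPM; it reflects counting error alone, as PCR copies are not marked in these reads. Of 10 markers of mature hepatocytes, Alb, Serpina1a and Cps1 had 0 counts in all 8 libraries and 7 had counts in at least 1 library. The 10 summed to 48.9 CPM in parental SNU-6621, of which Cyp2e1 gave 45.3 CPM (2369 counts), and to 0.124 to 2.65 CPM in the other libraries, where Apoa2, Ttr, Tat and Apoa1 had at most 78 counts each. The 10 biliary and epithelial markers, such as Krt19 and Krt7, summed to 5266 to 21083 CPM. Of 10 macrophage markers 8 had 0 counts throughout, with Cd68 as the main exception, as had 5 of 10 fibroblast and stellate cell markers and 4 of 10 endothelial markers. The libraries thus held epithelial transcripts and, outside parental SNU-6621, few of the hepatocyte markers. In bulk libraries, fewer cells of a type and less RNA per cell cannot be told apart.

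The parental organoids expressed the whole synthesis route. Levels of different genes are compared here only per kilobase of merged exons. In the 4 parental lines the sterol demethylation enzyme gene Msmo1 stood at 136 ± 34.0 CPM per kilobase (mean ± SD, n = 4), Hmgcs1, which makes HMG-CoA, at 116 ± 32.5 and Fdps, which makes farnesyl diphosphate, at 112 ± 46.2. These 3 lay within 1 SD of each other. Insig1 followed at 88.7 ± 30.7 CPM per kilobase and Sqle, the squalene epoxidase gene, at 68.6 ± 24.1. At the low end of the enzymes were Ggps1, which makes the geranylgeranyl group for protein prenylation, at 12.1 ± 0.969, Mvk (mevalonate kinase) at 10.6 ± 4.1 and Hsd17b7, a ketosterol reductase gene, at 7.16 ± 1.14 CPM per kilobase.

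The LXR and efflux genes other than Nr1h2 had low counts in parental organoids. Nr1h2 stood at 51.7 ± 5.94 CPM per kilobase, against 0.131 ± 0.0524 for Nr1h3. The efflux pump gene Abca1 had 23 counts in parental SNU-6621 and 0 counts in each of the other 7 libraries. Abcg1, another efflux pump gene, had 128, 6, 9 and 0 counts in the 4 parental lines. Mylip had 24, 0, 7 and 6 counts in the same order and 0 in all lenvatinib and resistant libraries. Npc1l1, the intestinal cholesterol importer gene, stood at 0.480 ± 0.513 CPM per kilobase, and most of its counts came from SNU-6625, with 273 against 51, 47 and 74 in the other lines. These counts are too low to place Abca1, Abcg1 and Mylip in an order.

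The parental lines differed in the synthesis genes. Parental SNU-6621 was the lowest of the 4 lines in 18 of 20 synthesis enzyme genes, and SNU-6625 was the highest line in 19 of the 31 genes that passed the filter. The 20 enzyme genes summed to 1434 CPM in SNU-6621, 2613 in SNU-6622, 3170 in SNU-6624 and 3356 in SNU-6625. Pmvk, phosphomevalonate kinase, had 17.9 CPM in SNU-6621 against 55.3, 57.2 and 55.0 CPM in the others. Lss, which closes the ring of lanosterol, had 64.1 CPM against 163, 230.0 and 261 CPM. With 1 library a line, these differences were not tested.

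**Figure D1:**
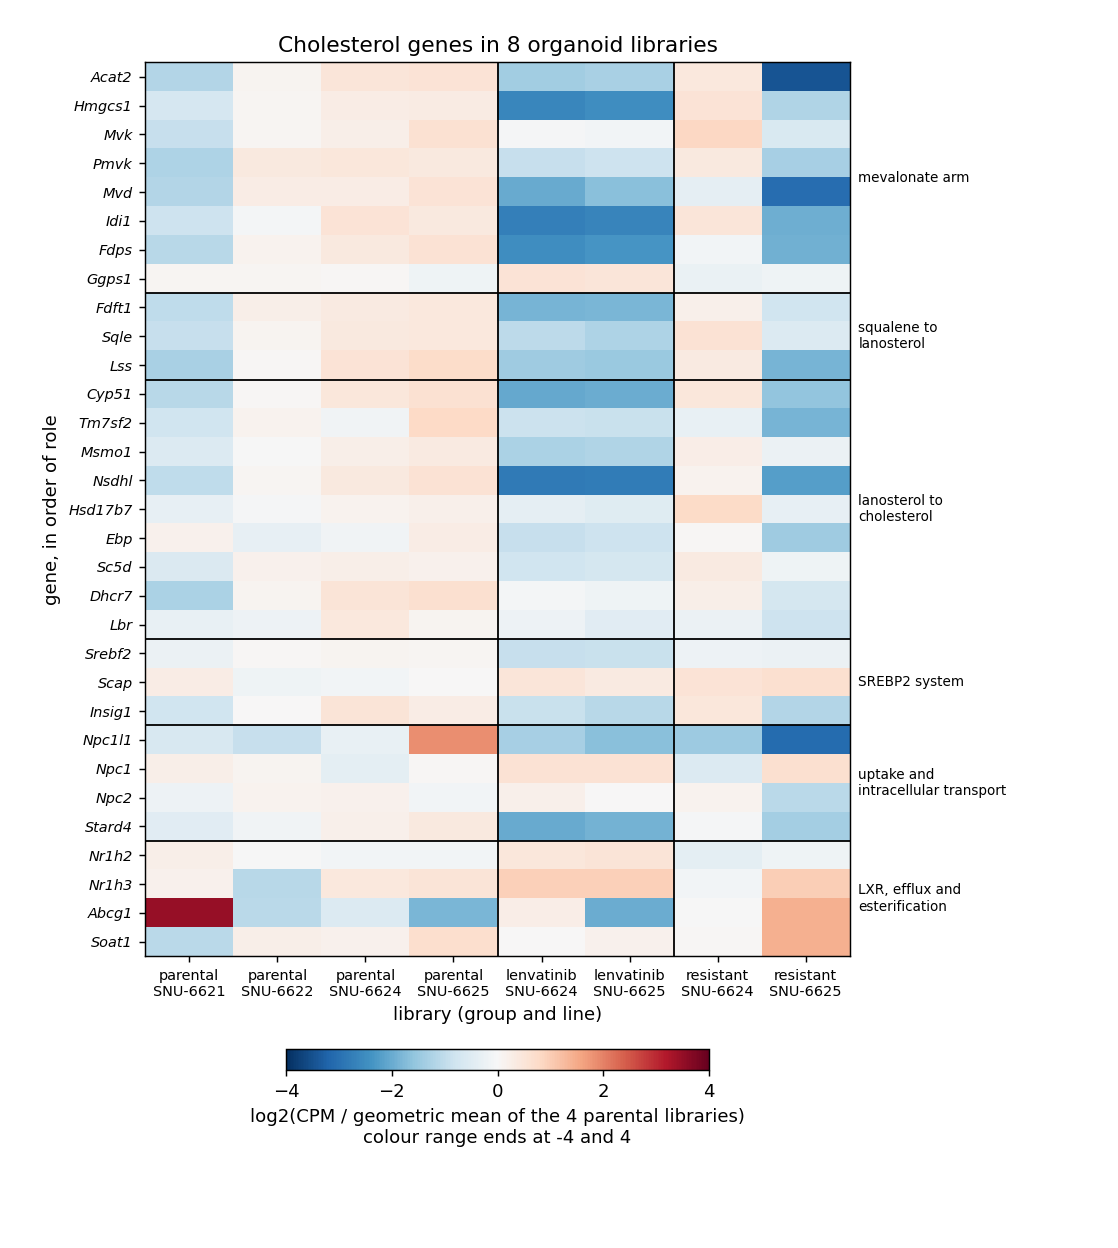
Heat map of 31 cholesterol genes (rows, by role) in 8 libraries (columns), as log2 of CPM over the geometric mean of the 4 parental libraries, with values below the floor of 3 counts drawn at the floor. Both lenvatinib columns are blue (lower) for most enzyme genes, resistant SNU-6624 is near the parental level, and resistant SNU-6625 is lower again; Ggps1, Scap, Npc1 and Nr1h2 are red (higher) in both lenvatinib columns.

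The first comparison asks what lenvatinib changed within lines SNU-6624 and SNU-6625. Lenvatinib-treated organoids had lower levels of genes in the mevalonate, squalene and lanosterol stages of the route, and of the gene of its activator, Srebf2. By edgeR, 6 of the 31 genes fell (adjusted p under 0.05) and 0 rose, against 5.78% of all 17038 genes tested called, 4.08% lower and 1.70% higher. The 6 were Hmgcs1, Fdft1, Msmo1, Sc5d, Srebf2 and Stard4. The counts per role group below split these same 6 calls and stand against the same 4.08% of all genes. The median log2 fold change of the 31 genes was -1.37, against -0.01 over all genes tested, and 25 of the 31 lay below 0. Both lenvatinib libraries lay below all 4 parental libraries in CPM for 19 of the 31 genes, against 21.4% of all genes, and above all 4 for 5 of them, against 30.9%.

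In the mevalonate arm, 1 of 8 genes fell and 7 had values not called. Hmgcs1 (gene 208715, chromosome 13, 119690351 to 119708260, mm10) had 241, 408, 474 and 489 CPM in the 4 parental lines and 64.1 and 68.9 CPM in lenvatinib SNU-6624 and SNU-6625. Its groups did not overlap, and it fell by 2.94 on the log2 scale (SE 0.49, adjusted p = 0.0488 by edgeR). Idi1, the isomerase that makes the reactive isoprene unit, had 91.4, 155, 236 and 212 CPM in the parental lines and 24.6 and 26.4 CPM after lenvatinib, a log2 fold change of -3.19 (SE 0.65, adjusted p = 0.0634 by edgeR). Fdps had 70.1, 163, 195 and 225 CPM against 26.9 and 29.2 CPM, a log2 fold change of -3.00 (SE 0.53, adjusted p = 0.0522 by edgeR). For Idi1 and Fdps too, both lenvatinib libraries were lower than every parental library, although the test was not passed. The values of the decarboxylase gene Mvd (-2.35), the thiolase gene Acat2 (-1.94), Pmvk (-1.37) and Mvk (-0.62) were negative as well. Ggps1, at the branch to protein prenylation and not on the way to sterol, had the opposite sign at 0.50 (SE 0.18), with 54.7 and 46.7 CPM in parental and 76.6 and 74.6 CPM in lenvatinib SNU-6624 and SNU-6625.

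From squalene to lanosterol, 1 of 3 genes fell. Fdft1 (gene 14137, chromosome 14, 63145150 to 63181687), squalene synthase, had 87.5, 206, 227 and 239 CPM in the 4 parental lines and 48.9 and 49.9 CPM after lenvatinib. It fell by 2.32 on the log2 scale (SE 0.28, adjusted p = 0.0371 by edgeR). Sqle had 94.1, 193, 232 and 238 CPM against 85.8 and 76.4 CPM, a log2 fold change of -1.63 (SE 0.28, adjusted p = 0.0512 by edgeR). The lenvatinib libraries were close in level to parental SNU-6621 for Sqle and well below the parental libraries of their own lines. Lss had 59.6 and 57.2 CPM after lenvatinib, a log2 fold change of -2.18 (SE 0.59).

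Of the 9 genes from lanosterol to cholesterol, 2 fell and 0 rose, and all 9 fitted changes were negative. Msmo1 (gene 66234, chromosome 8, 64718123 to 64733578) had 184, 267, 315 and 342 CPM in the parental lines and 112 and 118 CPM after lenvatinib, and fell by 1.59 on the log2 scale (SE 0.20, adjusted p = 0.0385 by edgeR). Sc5d (gene 235293, chromosome 9, 42251592 to 42264300), a sterol desaturase gene, had 97.8, 164, 169 and 165 CPM against 83.2 and 89.9 CPM and fell by 1.03 (SE 0.17, adjusted p = 0.0492 by edgeR). Both genes were lower in each lenvatinib library than in each parental one. The greatest fitted change among the 31 genes was that of Nsdhl, a sterol dehydrogenase gene, with 34.9, 75.3, 92.6 and 105.6 CPM against 10.1 and 10.2 CPM and a log2 fold change of -3.39 (SE 0.66, adjusted p = 0.0605 by edgeR, not called). Cyp51, lanosterol demethylase, had -2.64 (SE 0.56), and the reductase or isomerase genes Tm7sf2, Ebp, Dhcr7 and Hsd17b7 had -1.40, -1.06, -0.80 and -0.71. Lbr, whose protein is both a sterol reductase and a nuclear envelope protein, had -0.66 (SE 0.13).

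Of the SREBP2 system, 1 of 3 genes fell. Srebf2 (gene 20788, chromosome 15, 82147269 to 82205379) had 274, 336, 348 and 344 CPM in the parental lines and 172 and 175 CPM after lenvatinib. It fell by 1.08 on the log2 scale (SE 0.18, adjusted p = 0.0469 by edgeR). Insig1, itself a target of SREBP2, had 130, 227, 322 and 279 CPM against 122 and 104 CPM, a log2 fold change of -1.50 (SE 0.36, adjusted p = 0.0786 by edgeR). Scap had the opposite sign, with 75.6 and 82.3 CPM in parental and 115 and 106 CPM in lenvatinib SNU-6624 and SNU-6625 and a log2 fold change of 0.41 (SE 0.18, adjusted p = 0.202 by edgeR).

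Among the uptake and transport genes, 1 of 4 tested fell. Stard4 (gene 170459, chromosome 18, 33199138 to 33213862), a carrier that moves cholesterol between membranes and is also a known SREBP2 target, had 109, 138, 175 and 195 CPM in the parental lines and 37.2 and 40.3 CPM after lenvatinib. It fell by 2.34 on the log2 scale (SE 0.37, adjusted p = 0.0463 by edgeR). The lysosomal cholesterol exporter genes did not follow it: Npc1 had 58.9 and 79.0 CPM in parental and 115 and 116 CPM in lenvatinib SNU-6624 and SNU-6625 (log2 fold change 0.71, SE 0.37, adjusted p = 0.264 by edgeR), and Npc2 had a log2 fold change of -0.01 (SE 0.25). Npc1l1 had 74 and 273 counts in parental and 34 and 26 counts in lenvatinib SNU-6624 and SNU-6625, so its log2 fold change of -2.66 (SE 1.01, not called) rested mostly on line SNU-6625.

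Of the LXR, efflux and esterification genes, 0 of 4 tested were called by edgeR, and 1 had an unadjusted p under 0.05. That gene was Nr1h2, with 95.3 and 96.4 CPM in parental and 141 and 147 CPM in lenvatinib SNU-6624 and SNU-6625, a log2 fold change of 0.50 (SE 0.18, adjusted p = 0.145 by edgeR). DESeq2 and limma-voom called none of these 4 genes either. Soat1, which esterifies cholesterol for storage, had 60.7 and 87.2 CPM in parental and 54.4 and 61.6 CPM in lenvatinib libraries, a log2 fold change of -0.38 (SE 0.38). Abcg1 had 15 and 0 counts after lenvatinib, against 9 and 0 in the parental libraries of the same lines, too few to show a change.

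**Figure D2:**
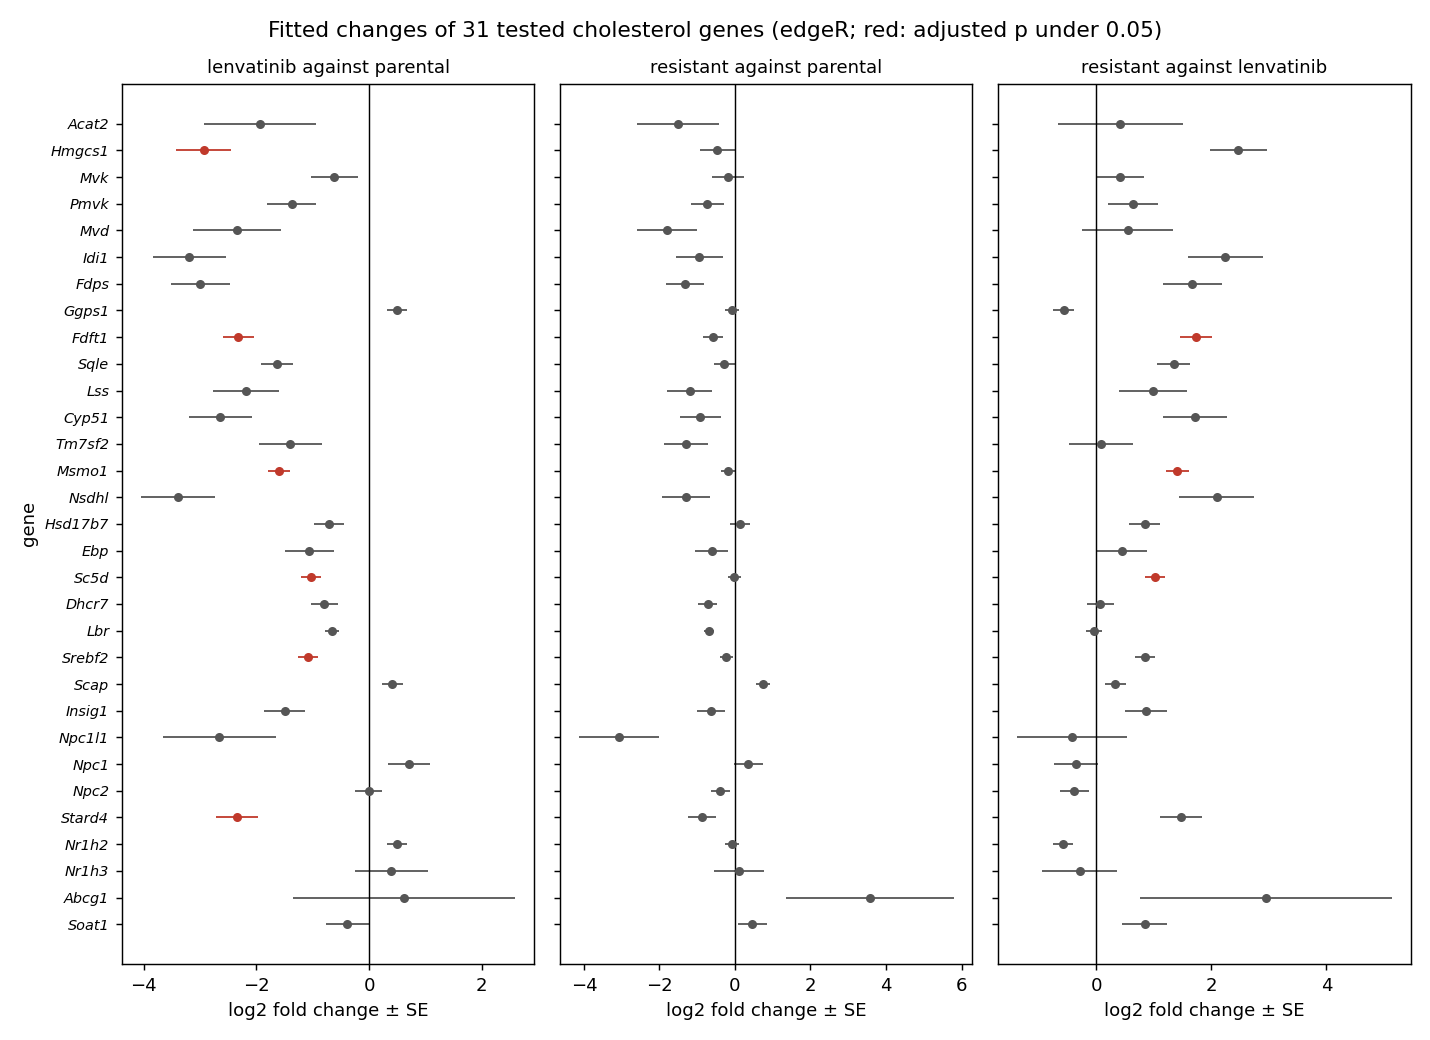
Log2 fold change for 31 cholesterol genes in 3 comparisons, fitted by edgeR, with a standard error (SE) derived from the F statistic. Red points have an adjusted p under 0.05. In lenvatinib against parental, 6 red points lie left of 0; in resistant against parental no point is red; in resistant against lenvatinib the red points are Fdft1, Msmo1 and Sc5d, right of 0.

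How many of these genes passed the test depended on single libraries. Without resistant SNU-6624 or without resistant SNU-6625, which take no part in this comparison but enter the shared estimate of the spread, edgeR called 24 of 31 genes lower and 4 higher (Ggps1, Npc1, Nr1h2 and Scap), against 23.0% and 22.8% of all genes called lower and 20.3% and 20.9% called higher. Without parental SNU-6624, parental SNU-6625, lenvatinib SNU-6624 or lenvatinib SNU-6625 it called 0 of 31, and 0 genes in the whole table, with 19, 11, 11 and 16 of the 31 at an unadjusted p under 0.05. DESeq2 called 19 lower and 0 higher, against 13.7% and 7.81% of all genes, and limma-voom 11 lower and 0 higher, against 6.50% and 3.46%. For all of these settings the median log2 fold change of the cholesterol genes was between -1.67 and -0.83.

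The promoters of called genes are shown as a description, since these genes belong to a known sterol-regulated group. They were picked by their calls, and what regulates them here was not tested. The RefSeq promoter table (GRCm38.p6, the assembly of mm10) held 27 of the 33 genes, among them 4 of the 6 called ones. Each line gives the 250 bases before the start site, 5′ to 3′ on the gene's strand; capitals mark the CCAAT box bound by NF-Y (CCAAT, or ATTGG on the other strand) and the core of the sterol regulatory element (CACNCCAC, either strand).
Hmgcs1, chr13:119690101-119690350, plus strand: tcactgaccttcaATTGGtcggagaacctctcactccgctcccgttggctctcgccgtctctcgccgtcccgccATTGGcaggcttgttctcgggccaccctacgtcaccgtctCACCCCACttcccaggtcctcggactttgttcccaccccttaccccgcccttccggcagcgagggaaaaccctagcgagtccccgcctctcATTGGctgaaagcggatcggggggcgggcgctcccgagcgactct
Msmo1, chr8:64733579-64733828, minus strand: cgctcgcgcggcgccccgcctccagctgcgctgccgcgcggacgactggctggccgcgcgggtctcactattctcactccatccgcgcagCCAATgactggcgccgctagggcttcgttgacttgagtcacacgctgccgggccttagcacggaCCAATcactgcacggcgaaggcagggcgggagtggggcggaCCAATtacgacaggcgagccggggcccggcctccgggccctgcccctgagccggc
Srebf2, chr15:82147019-82147268, plus strand: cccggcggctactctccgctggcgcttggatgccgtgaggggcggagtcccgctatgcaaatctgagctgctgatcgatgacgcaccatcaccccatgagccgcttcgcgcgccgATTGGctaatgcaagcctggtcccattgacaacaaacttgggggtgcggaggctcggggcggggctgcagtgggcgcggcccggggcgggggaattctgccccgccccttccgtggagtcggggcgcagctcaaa
Sc5d, chr9:42264301-42264550, minus strand: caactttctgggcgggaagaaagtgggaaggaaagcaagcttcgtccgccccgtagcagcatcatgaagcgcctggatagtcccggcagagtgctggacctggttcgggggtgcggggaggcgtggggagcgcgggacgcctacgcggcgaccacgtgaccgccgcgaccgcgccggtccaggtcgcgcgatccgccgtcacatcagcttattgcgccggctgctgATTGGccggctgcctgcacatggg

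All 4 promoters held a CCAAT box: Hmgcs1 and Msmo1 held 3 each, and Srebf2 and Sc5d 1 each. In the whole window of the table, which also takes in 50 bases after the start site, 16 of 17 synthesis enzyme genes had a CCAAT box, or 94.1% (Wilson 95% interval 73.0% to 99.0%), against 60.0% of 10 other cholesterol genes and 42.9% of the 11925 genes tested that the table holds. The exact core of the sterol regulatory element was found in 3 of the 27 cholesterol genes, or 11.1% (interval 3.85% to 28.1%), against 7.51% of genes tested, and Hmgcs1 was the only one of the 4 printed with it. The GC box of SP1 (GGGCGG) was found in 81.5% of the 27 genes and 63.7% of genes tested. Of the LXR element known as DR4, only the exact form was searched for. It was found in 0 of the 27 genes, in 0 of the genes tested and in 4 of all 27025 genes of the promoter table. With so few matches anywhere, this search cannot show whether the 27 genes lack such an element. All matches given here describe letters in a window and were not tested as sites.

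Lines SNU-6624 and SNU-6625 changed by similar amounts under lenvatinib in most of these genes. Within SNU-6624 the median log2 ratio of the 31 genes was -1.07 and within SNU-6625 it was -1.32, with 17 and 18 genes below -1. Of all 17038 genes tested, 3526 and 3260 lay below -1. The ratios of a gene in the 2 lines differed by a median of 0.134 on the log2 scale, against 0.257 over all genes tested. Hmgcs1 had ratios of -2.94 and -2.93, Mvd -2.36 and -2.34, Acat2 -1.93 and -1.94, and Srebf2 -1.07 and -1.09. These 4 genes are among the closest pairs. The lines differed more in Npc1l1 (-1.04 and -3.55), Tm7sf2 (-0.78 and -1.81), Mvk (-0.35 and -0.81) and Npc1 (0.91 and 0.44). The ratio was lower in SNU-6625 than in SNU-6624 for 23 of the 31 genes, against 51.2% of all genes, with a median difference of -0.12.

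**Figure D3:**
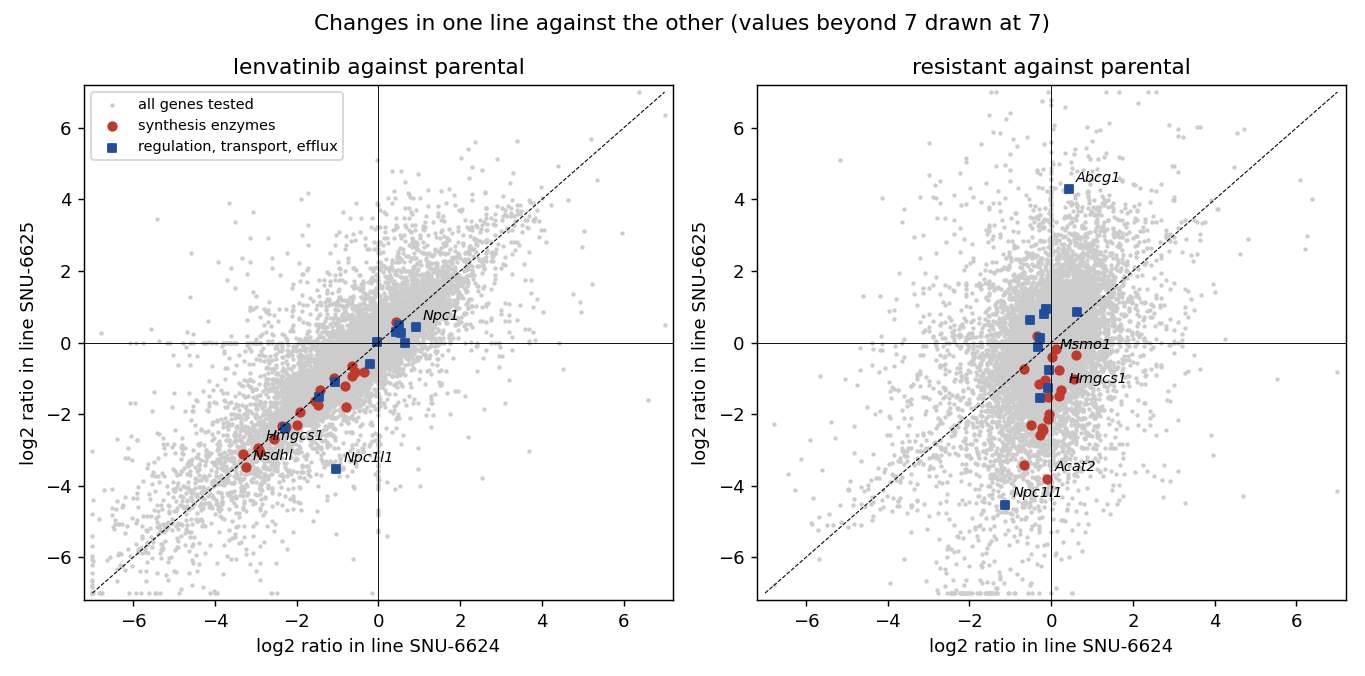
Log2 ratio within line SNU-6624 (x axis) against that within line SNU-6625 (y axis) for lenvatinib against parental (left) and resistant against parental (right), with all genes tested in grey, synthesis enzymes as red circles and the other cholesterol genes as blue squares; the dashed line marks equal change, and values beyond 7 are drawn at 7. On the left most enzymes lie along the dashed line. On the right the enzymes spread downwards in SNU-6625 while staying near 0 in SNU-6624.

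The next comparison asks how the cholesterol genes stood in resistant organoids. They were near the parental level in resistant SNU-6624 and low in resistant SNU-6625. The 20 enzyme genes summed to 3132 CPM in resistant SNU-6624, against 3170 CPM in its parental library, and to 1208 CPM in resistant SNU-6625, against 3356 CPM. Within SNU-6624 the median log2 ratio of the 31 genes was -0.13, and within SNU-6625 it was -1.03. Of the 20 enzyme genes, 14 lay below -1 in SNU-6625 and 0 in SNU-6624, against 3120 and 1535 of all 17038 genes tested. The ratios of a gene in the 2 lines differed by a median of 1.21 on the log2 scale, against 0.560 over all genes.

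By edgeR, 0 of the 31 genes were called in resistant against parental organoids, as were 0 of all genes (0%), with 4 of the 31 at an unadjusted p under 0.05 (1 higher and 3 lower), against 8.10% of all genes higher and 7.84% lower at that p. DESeq2 called Scap higher and Lbr and Npc1l1 lower, against 3.15% of all genes higher and 3.33% lower, and limma-voom called 0 of 31, with 6 at an unadjusted p under 0.05. Without resistant SNU-6624, when the lone resistant library is assumed to vary like the other groups, edgeR called 20 genes lower and 4 higher, against 16.4% of all genes called lower and 16.0% called higher. Without resistant SNU-6625 the median log2 fold change of the 31 genes was -0.19, against -0.008 over all genes. These fits each compare 1 resistant culture with its parental line and do not describe resistance in general.

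Values per library show which genes made the difference in SNU-6625. Acat2 had 137 and 142 CPM in parental and 130 and 8.85 CPM in resistant SNU-6624 and SNU-6625. Mvd had 79.3 and 95.5 CPM against 51.0 and 7.82 CPM. Both genes were lower in resistant SNU-6625 than in any other library, lenvatinib included. Lss had 230.0 and 261 CPM in parental and 201 and 43.6 CPM in resistant libraries, and Fdps had 195 and 225 CPM against 140 and 39.5 CPM. Hmgcs1 had 474 and 489 CPM against 572 and 170 CPM, so that resistant SNU-6625 stood between its parental and its lenvatinib library. Srebf2 (348 and 344 against 281 and 273 CPM), Sc5d (169 and 165 against 188 and 128 CPM) and Msmo1 (315 and 342 against 326 and 227 CPM) differed less from the parental level in that culture. Stard4 had 175 and 195 CPM in parental and 146 and 58.6 CPM in resistant libraries.

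Against the parental library of the same line, 17 of the 31 genes had a negative ratio in both resistant cultures and 2 a positive one. Of all 17038 genes tested, 5451 had a negative ratio in both and 5164 a positive one. By edgeR none of the 31 genes was called. Scap had 75.6 and 82.3 CPM in parental and 119 and 129 CPM in resistant SNU-6624 and SNU-6625, above all 4 parental libraries, as for 10.3% of all genes, with a log2 fold change of 0.75 (SE 0.18, adjusted p = 0.248 by edgeR). Lbr had 116 and 93.7 CPM against 74.7 and 49.2 CPM, a log2 fold change of -0.69 (SE 0.13, adjusted p = 0.247 by edgeR), and overlapped parental SNU-6621 and SNU-6622 at 70.9 and 75.0 CPM. Dhcr7, a sterol reductase gene near the end of the route, had 104 and 114 CPM in parental and 85.3 and 44.8 CPM in resistant libraries, a log2 fold change of -0.72 (SE 0.24, adjusted p = 0.289 by edgeR). Soat1 had 60.7 and 87.2 CPM in parental and 56.5 and 145 CPM in resistant libraries, Npc1 58.9 and 79.0 against 52.6 and 119 CPM, and Npc2 174 and 143 against 171 and 73.4 CPM. Abcg1 had 9 and 0 counts against 11 and 36 counts, and its fitted change was not called. Npc1l1 had 74 and 273 counts against 28 and 11 counts, with a log2 fold change of -3.08 (SE 1.06, adjusted p = 0.293 by edgeR).

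Resistant organoids were also set against lenvatinib-treated ones, a comparison in which resistance and the treatment label change together and cannot be told apart. It shares the lenvatinib libraries with the first comparison. By edgeR, 3 of the 31 genes rose and 0 fell, against 6.23% of all genes called, 4.14% higher and 2.08% lower. These were Fdft1 (206 and 102 CPM in resistant, 48.9 and 49.9 CPM in lenvatinib SNU-6624 and SNU-6625, log2 fold change 1.74, SE 0.28, adjusted p = 0.0449 by edgeR), Msmo1 (1.41, SE 0.19, adjusted p = 0.0393 by edgeR) and Sc5d (1.02, SE 0.17, adjusted p = 0.0487 by edgeR). For all 3, both resistant libraries lay above both lenvatinib libraries, but the share of all genes separated in this way was not counted. The 3 were called from these same libraries, so the separation adds no support to the calls. Hmgcs1 had 2.47 (SE 0.49, adjusted p = 0.0599 by edgeR). The median log2 ratio of the 31 genes was 1.17 within SNU-6624 and 0.36 within SNU-6625, where library size alone gave 0.048. For the 20 enzyme genes the median within SNU-6625 was 0.20, and -0.11 with library size alone, so its direction depended on the scaling. Scaled by library size alone, 1 gene was called higher (Msmo1) and 1 lower (Nr1h2), and that scaling put the median log2 fold change of all genes at -0.14, against 0.02. It also moved the calls over all genes from 706 higher and 355 lower to 596 and 663, and those of lenvatinib against parental from 289 and 696 to 427 and 556. Without resistant SNU-6624 edgeR called 14 higher and 3 lower, without resistant SNU-6625 19 higher and 3 lower, against 18.8% and 17.5% of all genes called higher and 16.2% and 15.5% called lower. It called 0 without any one of the parental or lenvatinib libraries, with 5 to 12 at an unadjusted p under 0.05.

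Cell division markers moved with these groups, and their part in the results was not tested. The 12 markers, Mki67 and Top2a among them, summed to 756 and 831 CPM in the parental libraries of the 2 treated lines, 42.9 and 52.2 CPM after lenvatinib, and 203 and 23.0 CPM in the resistant cultures. In parental SNU-6621 and SNU-6622 they summed to 318 and 336 CPM. The 20 enzyme genes summed to 3170 and 3356 CPM in the parental libraries of the 2 treated lines and to 958 and 961 CPM after lenvatinib. In resistant SNU-6624 and SNU-6625 these genes summed to 3132 and 1208 CPM, and in parental SNU-6621 and SNU-6622 to 1434 and 2613 CPM. The biliary and epithelial markers summed to 11615 and 12809 CPM in the parental libraries of the same lines, 5266 and 5748 CPM after lenvatinib and 19408 and 21083 CPM in the resistant cultures. These markers did not share one direction under lenvatinib: 8 of the 10 fitted changes were below 0 and 2 above. Krt19 had a log2 fold change of -3.25 and Epcam -0.24, while Sox9 had 0.56 and Cdh1 0.39. The macrophage markers, whose cells are rich in Abca1 and Abcg1, summed to 24.5 to 58.1 CPM, nearly all of it Cd68, with Ptprc, Adgre1 and Lyz2 at 0 in all 8 libraries.

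**Figure D4:**
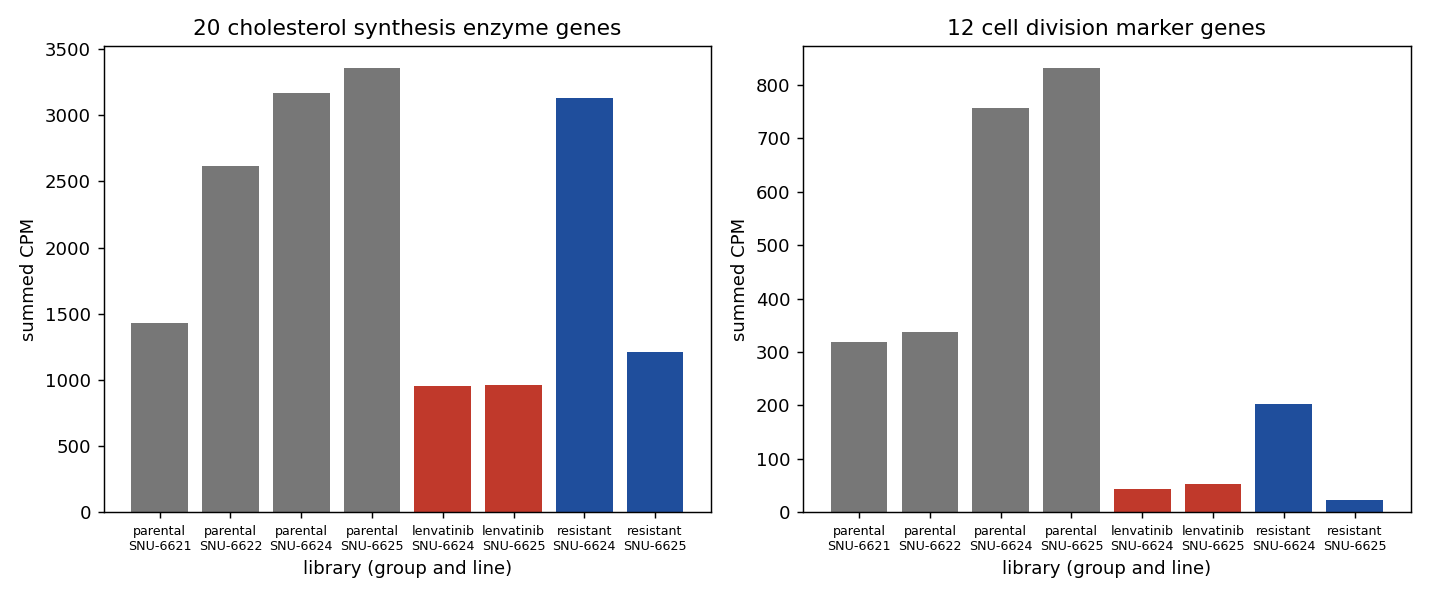
Bars give the summed CPM of 20 synthesis enzyme genes (left) and of 12 cell division markers (right) in each library, 1 bar per library with no error since each is 1 measurement; grey is parental, red lenvatinib and blue resistant. The enzyme sum is 958 and 961 CPM in the lenvatinib libraries, 3132 CPM in resistant SNU-6624 and 1208 CPM in resistant SNU-6625.

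Other genes of cholesterol balance did not share one direction. Of a list of 39 such genes, 32 were tested. Under lenvatinib 3 fell and 0 rose, against 4.08% of all genes called lower and 1.70% called higher. Of the 32 fitted changes, 15 were above 0 and 17 below, with a median of -0.02. Among those that fell were Srebf1, the gene of the related activator SREBP1 (178 and 208 CPM in parental, 79.8 and 87.8 CPM in lenvatinib SNU-6624 and SNU-6625, log2 fold change -1.29, SE 0.19, adjusted p = 0.0429 by edgeR), and the endocytic receptor gene Lrp1 (43.2 and 4.26 against 4.53 and 0.515 CPM, log2 fold change -3.26, SE 0.43, adjusted p = 0.0408 by edgeR). Vldlr, a lipoprotein receptor gene, had 154 and 131 against 169 and 148 CPM (0.07, SE 0.25). Cyp7a1, the rate-limiting enzyme of bile acid synthesis from cholesterol, had 0 counts in all 8 libraries. In resistant against parental organoids 0 of 32 were called by edgeR, with 3 at an unadjusted p under 0.05, and DESeq2 and limma-voom called 0 each. In resistant against lenvatinib 3 rose, Srebf1 (1.11) and Lrp1 (2.45) among them. Rxrb, a partner of LXR, fell by 1.15 on the log2 scale (SE 0.13, adjusted p = 0.0335 by edgeR). Of all genes, 4.14% were called higher and 2.08% lower in that comparison.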

How the data were processed

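Poly(A) RNA of 8 organoid libraries was prepared with a stranded mRNA kit, per the labels' protocols. HISAT2 2.1.0 with Bowtie2 2.3.4.1, StringTie 2.1.3b, Trimmomatic 0.38, FastQC 0.11.7 and mm10 are named in the submitters' processing notes; of the counting step, tool and strand setting were not given in the sources used here. The deposited values are raw read counts per gene, 1 table per library, per the file headers. CPM was computed from them. No 2 libraries held identical counts, and the closest pair, the lenvatinib libraries, differed by a chi-square of 54.1 per gene.

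Counts of 6 libraries, those of the lines present in every group (SNU-6624, SNU-6625), were fitted with edgeR 4.0.16 in R 4.3.3 (quasi-likelihood F test, TMM scaling, filterByExpr, group plus line), which left 2 residual degrees of freedom. P-values were adjusted by Benjamini-Hochberg over the 17038 genes that passed the filter, and a gene was called at an adjusted p under 0.05. Line pairs the libraries, since same-numbered libraries come from one cell line; their deviations from the group means correlated at 0.287 to 0.503. The SE given with an edgeR log2 fold change is its absolute value divided by the square root of the F statistic. It thus restates the test and is not a separate estimate of precision. Log2 ratios within a line used a prior count of 2. Alternatives were DESeq2 1.42.0, limma-voom (limma 3.58.1), other scalings, filters and sample sets, and leaving out each library. The scripts were run on simulated counts with a smaller spread than was fitted here and no difference between lines, so that run does not give error rates for these data. Gene positions and promoters came from RefSeq, exon lengths from GENCODE M21.

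The genes and lists were chosen with earlier results of these data known. Genes named with values are those called, in each role group the pair with the smallest p in lenvatinib against parental and in resistant against parental, and the most abundant of the other lists; some further values were added after they were seen. Promoters were to be printed for called genes with a sterol regulatory element core; since only Hmgcs1 had one, the other called genes held in the promoter table were added. Some genes of the wider list are not reported here.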

Additional observations from a re-analysis of the deposited data

Results flagged for a closer look

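In 7 of 33 cholesterol genes, 1 of the 4 parental lines stood far from the others, its gap to the nearest line, as a share of the whole range, exceeding Dixon's 95% critical value for 4 samples. Chance flags about 1 in 20 such groups, and genes of one library are not independent. Parental SNU-6621 was the lowest line in Pmvk (17.9 CPM, gap 0.946 of the range), Sc5d (97.8 CPM, 0.919) and Srebf2 (273.6 CPM, 0.846). It was the highest in Abcg1 (2.45 CPM, 0.939) and in Abca1 (0.440 CPM, 1.0), in which the other 3 lines had 0 counts. Parental SNU-6625 was the lowest line in Ggps1 (46.7 CPM, 0.912) and the highest in Npc1l1 (5.57 CPM, 0.911).

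For 2 genes of the mevalonate arm the lines went opposite ways in resistant against lenvatinib, by at least 1 on the log2 scale each way. The log2 ratio of Acat2 was 1.83 within line SNU-6624 but -1.86 within line SNU-6625, and that of Mvd was 1.70 and -1.07. With 1 library per line and group, the difference between lines was not tested.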

How the results depend on the processing

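Of the 31 cholesterol genes, 6 were called in lenvatinib against parental, 0 in resistant against parental and 3 in resistant against lenvatinib; without the replicate block for line these counts were 7, 0 and 4. In lenvatinib against parental the count was 2 with all 8 libraries, 28 with only the 4 libraries compared, 19 by DESeq2, 11 by limma-voom, 3 with library size alone, 0 with no filter (20 at an unadjusted p under 0.05) and 12 at 1 CPM or more in every library; of all genes these settings called 4.18%, 48.3%, 21.5%, 9.96%, 5.77%, 0.70% and 12.5%. In resistant against parental DESeq2 called 3 (6.48% of all genes). In resistant against lenvatinib the count was 0 with only the 4 libraries (12 unadjusted), 12 by DESeq2, 5 by limma-voom, 0 with no filter (14 unadjusted) and 6 at 1 CPM or more, against 1.45%, 20.9%, 9.31%, 1.30% and 15.9% of all genes. Leaving out 1 library gave 0 to 28, 0 to 24 and 0 to 22 calls in the 3 comparisons. For the other cholesterol homeostasis genes (3, 0 and 4 called), lenvatinib against parental gave 20 with only the 4 libraries, 7 by DESeq2, 5 by limma-voom, 1 with no filter and 0 to 19 with 1 library left out; resistant against parental gave 0 to 17 with 1 library left out; and resistant against lenvatinib gave 0, 11, 7, 2 and 0 to 19 under the same alternatives. In resistant against lenvatinib, the log2 fold change of Acat2 was -1.86 and that of Mvd -1.06 without resistant SNU-6624, but 1.83 and 1.69 without the resistant library of SNU-6625; each value rests on the 1 resistant library left. The longer core TCACNCCAC was found in 3.70% of the cholesterol promoters and 1.44% of all promoters, against 11.1% and 7.12% for the shorter one. The median changes of the 31 genes within each line kept their sign under library size alone and a prior count of 0.5, though resistant against lenvatinib in SNU-6625 went from 0.36 to 0.048 with library size alone; there the median of the 20 enzymes went from 0.20 to -0.11 and that of the other homeostasis genes from 0.18 to -0.12. For other counts that moved, the cause was not tested. The comparisons rest on 2 lines. Depth limits Abca1, Abcg1, Mylip, Nr1h3 and Npc1l1.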
